A study of Mus musculus with 12 samples.

Results

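The genes of glycolysis and the pentose phosphate pathway were followed in ARG1+ and ARG1- microglia sorted from the same brain area of young mice. The set has 34 genes, chosen by name: the glucose and lactate carriers, the enzymes from hexokinase to lactate dehydrogenase, the kinases that set the pace of glycolysis and of pyruvate oxidation, 5 enzymes of the pentose phosphate pathway, and *Hif1a*. Their symbols matched 35 of the 55487 rows of the count table through the GRCm38 annotation, because *Aldoa* carries a second identifier. All 34 genes were kept by the filter on low counts. The second *Aldoa* row, at 0 to 82 counts per library, is left out of what follows.

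The 12 libraries came from YARG mice of postnatal day 13. In this strain YFP reports activity of the *Arg1* locus, so ARG1+ and ARG1- stand for YFP+ and YFP- cells, and both populations carry the same reporter. There were 3 libraries of ARG1+ and 3 of ARG1- microglia for each sex. Each library held cells from several pooled brains of one sex, taken from tissue ventral to the corpus callosum that the labels call BF/striatum, and sorted as CX3CR1+ CD206- cells. The labels do not tie an ARG1+ library to the ARG1- library that may have come from the same tissue pool.

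Library totals ran from 28356659 to 60625170 counts. Levels are given as CPM, counts scaled by edgeR to a common normalized library total. A count of 0 allows a level of up to 3 counts, which was at most 0.102 CPM, and this limit covers counting error only. *Arg1* itself had 0 counts in all 6 ARG1- libraries and 0 to 52 counts in ARG1+ libraries, 4 of them at 0, so its RNA could not serve to check the sort labels. The 10 microglial markers summed to 63118 to 88062 CPM in ARG1- and 53586 to 65902 CPM in ARG1+ libraries, with 6 lower and 1 higher in ARG1+ cells. Of the other cell types, the astrocyte markers summed to 164 to 222 against 128 to 150 CPM, of which *Slc1a3*, the 1 of 8 called (lower), held nearly all (176 ± 20.1 and 131 ± 4.95 CPM) while 4 of the 8 lay above 0, the oligodendrocyte markers to 266 to 390 against 171 to 267 CPM, with 1 of 9 called (*Cnp*, lower), and the neuronal markers to 6.95 to 17.4 against 2.61 to 9.46 CPM. The oligodendrocyte, neuronal, endothelial and border macrophage sums overlapped between the populations. The endothelial markers summed to 30.4 to 58.8 against 44.9 to 84.3 CPM. The border macrophage markers summed to 120 to 145 against 119 to 253 CPM. The erythroid sums did not overlap, at 3.69 to 17.7 against 0 to 3.39 CPM, with 1 of 5 tested genes lower. The monocyte sums overlapped, at 5.12 to 14.1 against 3.70 to 7.77 CPM, with 1 of 4 tested genes higher and 1 lower. The neutrophil markers, of which none was tested, summed to 0 to 3.31 against 0 to 0.946 CPM. Of the cytosolic ribosomal protein genes, 76 of 78 were lower in ARG1+ cells, with a median log2 fold change of -1.20. A list of 13 transcripts held genes known for detained introns and the noncoding *Neat1* and *Malat1*, which are annotated without an intron. Of these 13, 7 were higher, *Neat1* among them. Of 14 tested immediate early genes 2 were higher, and of 8 tested genes of the mitochondrial genome 4 were lower. Beside these counts, 6.44% of all genes tested were higher and 9.42% lower in ARG1+ cells. The part of the marker and quality lists above in the results for the glycolytic genes was not tested.

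Glycolysis splits glucose into pyruvate in the cytosol and yields ATP and NADH, and lactate dehydrogenase uses that NADH to turn pyruvate into lactate or back. The pentose phosphate pathway branches off at glucose phosphate: its oxidative arm makes NADPH, which feeds both glutathione reduction and the superoxide-producing NADPH oxidase of phagocytes, and its non-oxidative arm returns carbon to glycolysis. Microglia are known to raise glycolysis when activated by inflammatory stimuli, and *Hif1a*, which encodes the oxygen-regulated subunit of hypoxia-inducible factor, is a known driver of glycolytic gene transcription in macrophages.

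Because hypoxia-inducible factor is known to bind a short core, ACGTG or GCGTG, near many of these genes, the 250 bases before the annotated starts were searched for it on both strands. These letters overlap the E-box CACGTG, which always holds the core. RefSeq (GRCm38.p6) listed 51 start windows for the 34 genes, and 41 of them, or 80.4%, held the core, against 38.6% of the 32841 windows of all genes. Among windows with at least 10 CpG dinucleotides the shares were 88.6% of 35 and 64.2% of 12416. At least 1 window of 31 of the 34 genes held it, and *Gpi1*, *Tpi1* and *Eno2* had none. The E-box occurred in 13.7% of the windows of these genes and 6.02% of all windows. Among windows with at least 10 CpG dinucleotides the E-box shares were 17.1% and 9.37%. Windows of the same gene can overlap, as for *Eno1*, so they are not independent. A match is a run of letters and does not show that the factor binds there. The windows of the 5 genes with a called difference and of *Ldha*, the isoenzyme of *Ldhb*, are printed 5′ to 3′ so that the letters can be compared between the genes that fell, the gene that rose and *Ldha*. Each ends at the base before a RefSeq start, which for *Hif1a*, *Ldha* and *Gapdh* lies inside the gene's span in the annotation used for the counts, and capitals mark the core or the E-box.
Taldo1, chr7:141391910-141392159, plus strand: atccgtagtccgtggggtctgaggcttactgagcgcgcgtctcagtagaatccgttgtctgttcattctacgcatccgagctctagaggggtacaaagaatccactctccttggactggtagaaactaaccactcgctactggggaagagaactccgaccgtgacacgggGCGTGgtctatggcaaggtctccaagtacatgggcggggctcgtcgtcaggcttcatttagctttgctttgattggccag
Ldhb, chr6:142507958-142508207, minus strand: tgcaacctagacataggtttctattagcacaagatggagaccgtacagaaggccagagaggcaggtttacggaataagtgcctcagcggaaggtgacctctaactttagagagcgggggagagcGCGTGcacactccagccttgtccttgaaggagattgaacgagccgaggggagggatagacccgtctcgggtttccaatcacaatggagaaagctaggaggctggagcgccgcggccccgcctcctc
Gapdh, chr6:125165774-125166023, minus strand: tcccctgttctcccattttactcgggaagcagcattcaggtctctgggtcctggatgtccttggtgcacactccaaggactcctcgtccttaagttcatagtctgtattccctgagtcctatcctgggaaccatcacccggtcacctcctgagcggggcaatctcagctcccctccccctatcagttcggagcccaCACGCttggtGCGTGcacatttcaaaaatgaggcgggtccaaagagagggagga
Eno1, chr4:150236458-150236707, plus strand: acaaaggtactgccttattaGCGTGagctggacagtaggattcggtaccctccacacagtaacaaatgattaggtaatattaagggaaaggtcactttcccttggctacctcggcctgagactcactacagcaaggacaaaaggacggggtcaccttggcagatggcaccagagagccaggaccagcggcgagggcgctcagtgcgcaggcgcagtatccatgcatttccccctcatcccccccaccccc
Hif1a, chr12:73907617-73907866, plus strand: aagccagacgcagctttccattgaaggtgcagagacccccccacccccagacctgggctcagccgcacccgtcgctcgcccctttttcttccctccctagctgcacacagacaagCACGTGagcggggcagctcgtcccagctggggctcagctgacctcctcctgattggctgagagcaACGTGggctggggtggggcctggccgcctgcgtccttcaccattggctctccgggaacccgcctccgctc
Ldha, chr7:46845554-46845803, plus strand: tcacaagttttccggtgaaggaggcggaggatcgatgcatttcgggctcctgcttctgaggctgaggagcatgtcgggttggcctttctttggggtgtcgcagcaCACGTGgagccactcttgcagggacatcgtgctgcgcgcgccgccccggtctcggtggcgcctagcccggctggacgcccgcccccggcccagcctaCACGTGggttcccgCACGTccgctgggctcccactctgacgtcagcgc
*Taldo1* held 1 core 80 bases before its start, *Ldhb* 1 at 126 bases and *Eno1* 1 at 230 bases in the window that no annotated exon overlaps. *Gapdh* held 2, at 54 and 44 bases. *Hif1a* held an E-box at 135 and a further core at 70 bases. *Ldha* had 2 windows that no annotated exon overlaps, and the one with more sites was printed. That window held 3 sites, 2 of them E-boxes at 145 and 48 bases. The other *Ldha* window held 1 core at 59 bases and no E-box, so the number of sites printed for *Ldha* depends on this choice. The core was thus present in the windows of genes that fell, that rose and that were not called.

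To ask whether carbohydrate metabolism genes differed between the populations, ARG1+ and ARG1- libraries were compared in a fit that also held sex. Of the 34 genes, 4 fell in ARG1+ microglia: *Taldo1*, *Ldhb*, *Gapdh* and *Eno1*. *Hif1a* rose. With an adjusted p under 0.05 in edgeR's quasi-likelihood test as the call, 5 of 34 genes, or 14.7%, were called, where 15.9% of the 16908 genes tested were. The count of 4 lower genes stood beside 9.42% of all genes, and the count of 1 higher gene beside 6.44%. The share of called genes was therefore near that of the whole table. At an unadjusted p under 0.05 there were 12 genes (29.1% of all genes), and DESeq2 called 11 (22.0% of all genes). The same 4 genes that fell were the ones whose ARG1+ libraries all lay below the ARG1- libraries, a pattern seen in 6.56% of all genes. No gene had all its ARG1+ libraries above the ARG1- libraries (3.48% of all genes). The fitted difference was below 0 for 23 genes and above 0 for 11, with a median log2 fold change of -0.09 against 0.06 over all genes tested.

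**Figure D1:**
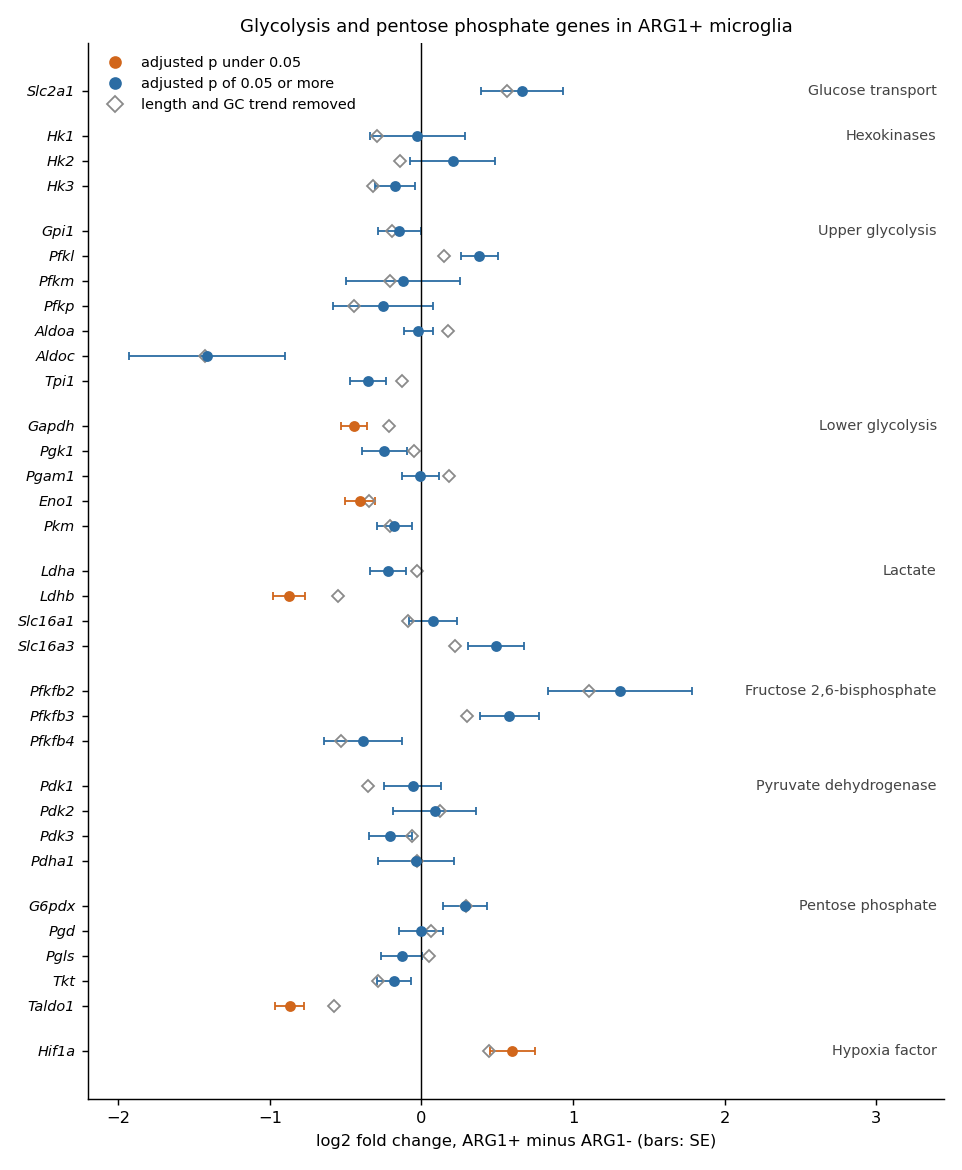
Log2 fold change (x axis, ARG1+ minus ARG1-, bars give the SE) of 33 of the 34 genes (y axis, grouped by role), with *Eno2* left out because its SE of 2.91 would stretch the axis. Orange points passed an adjusted p of 0.05, and open diamonds give the value once each library's trend on transcript length and GC content was removed: *Hif1a* then moved from 0.60 to 0.45 and *Ldhb* from -0.87 to -0.55.

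Of the 5 pentose phosphate genes 1 was called. *Taldo1* (chr7:141392199-141402968, plus strand) encodes transaldolase, a reversible enzyme of the non-oxidative arm. Its level ran from 293 CPM through a median of 314 to 365 CPM in ARG1- libraries and from 148 through 172 to 212 CPM in ARG1+ libraries. Every ARG1+ library lay below every ARG1- library. The mean fell from 320 ± 24.2 to 175 ± 21.1 CPM (SD, n = 6 each), with a log2 fold change of -0.87 and an SE of 0.10 (adjusted p = 0.00042 by edgeR), the smallest adjusted p of the set. *Tkt*, transketolase, which works beside it in the same arm, stood at 176 ± 19.8 and 156 ± 19.4 CPM, a log2 fold change of -0.18 (adjusted p = 0.31). In the oxidative arm, *G6pdx*, the gate-keeping glucose-6-phosphate dehydrogenase, stood at 90.7 ± 21.1 and 111 ± 13.6 CPM (log2 0.29, adjusted p = 0.208). *Pgls*, which opens the lactone made in the first step, and *Pgd*, which makes the second NADPH, stood at log2 values of -0.13 and 0.00 with adjusted p of 0.565 and 0.991. No oxidative gene was called.

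Lactate dehydrogenase showed the other large difference. *Ldhb* (chr6:142490249-142507957, minus strand) encodes the B subunit, the form that dominates in heart and favours the direction from lactate to pyruvate. Its level was 838 CPM at the lowest, 943 at the median and 1086 at the highest in ARG1- libraries, and 435, 487 and 624 CPM in ARG1+ libraries. The populations did not overlap. The mean fell from 947 ± 80.7 to 517 ± 77.8 CPM (log2 fold change -0.87, SE 0.10, adjusted p = 0.000578). *Ldha*, which encodes the A subunit typical of muscle and of cells that release lactate, ran from 270 through 386 to 447 CPM in ARG1- and from 260 through 334 to 369 CPM in ARG1+ libraries. Its ranges overlapped, and its log2 fold change was -0.22 (SE 0.12, 95% interval -0.45 to 0.01, adjusted p = 0.24).

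**Figure D2:**
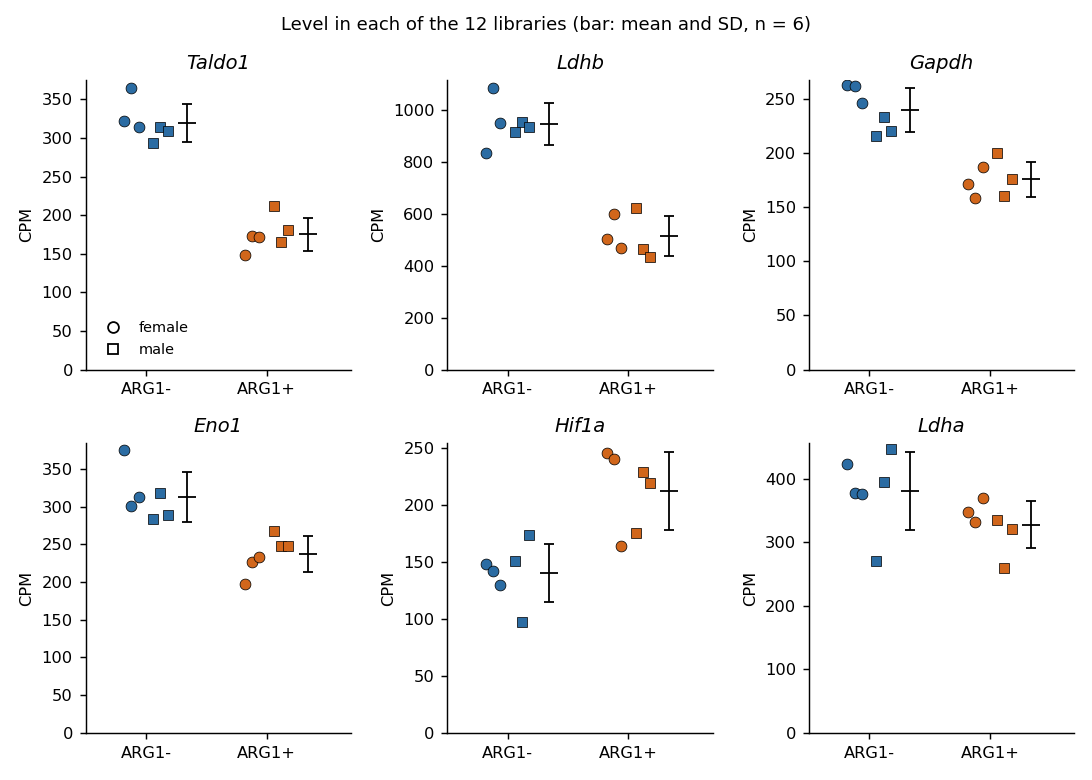
Level in CPM (y axis, from 0) of the 5 called genes and *Ldha* in each of the 12 libraries, with circles for females and squares for males and, beside each population, the mean and SD over 6 libraries. The ARG1+ points lie wholly below the ARG1- points for *Taldo1*, *Ldhb*, *Gapdh* and *Eno1*, and the populations overlap for *Hif1a* and *Ldha*.

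Below the aldolase step, where glycolysis yields its ATP, *Gapdh* and *Eno1* fell. *Gapdh* (chr6:125161715-125166467, minus strand) encodes the dehydrogenase that makes the NADH of glycolysis and is often taken as a reference gene. It ran from 216 through 240 to 263 CPM in ARG1- libraries and from 159 through 174 to 200 CPM in ARG1+ libraries. The populations did not overlap, and the mean fell from 240 ± 20.3 to 176 ± 15.9 CPM (log2 fold change -0.45, SE 0.09, adjusted p = 0.00559). Enolase, the step before pyruvate kinase, is encoded in these cells almost wholly by *Eno1* (chr4:150236721-150248879, plus strand). *Eno1* ran from 284 through 307 to 375 CPM in ARG1- and from 197 through 240 to 268 CPM in ARG1+ libraries, again without overlap. It fell from 313 ± 33.2 to 237 ± 23.9 CPM (log2 fold change -0.41, SE 0.10, adjusted p = 0.0148). Its call was lost without ARG1+ female 7 or without ARG1+ female 8 (highest adjusted p = 0.0519).

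The neighbours of these genes in the same stretch of the pathway were not called. *Pgk1* and *Pgam1*, phosphoglycerate kinase and mutase, had log2 fold changes of -0.25 (adjusted p = 0.305) and -0.01 (0.979). *Pkm*, pyruvate kinase, stood at 475 ± 59.3 and 419 ± 55.1 CPM (log2 -0.18, adjusted p = 0.328). *Eno2*, the neuronal enolase, varied strongly between libraries, from 0 to 2.65 CPM in ARG1- and from 0 to 4.23 CPM in ARG1+ libraries, and its fold change carried an SE of 2.91.

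From hexokinase through aldolase to triosephosphate isomerase no enzyme was called. *Aldoa*, the muscle-type aldolase and the most abundant glycolytic enzyme transcript per length, was 398 ± 42.3 CPM in ARG1- and 393 ± 41.7 CPM in ARG1+ libraries (log2 -0.02, 95% interval -0.21 to 0.17, adjusted p = 0.921). *Aldoc*, the brain-type aldolase and a known astrocyte transcript, was 9.55 ± 7.22 and 3.58 ± 1.81 CPM (log2 -1.41, adjusted p = 0.0848), and DESeq2 called it lower. Of the astrocyte markers given above 4 lay below and 4 above 0, and their part in the *Aldoc* value was not tested. *Tpi1*, triosephosphate isomerase, stood at 173 ± 23.0 and 136 ± 18.9 CPM (log2 -0.35, adjusted p = 0.0654). *Pfkl*, the liver-type phosphofructokinase that commits hexose to glycolysis, lay on the other side at 126 ± 21.2 and 164 ± 18.4 CPM (log2 0.38, adjusted p = 0.0524). The remaining upper enzymes, *Gpi1*, *Pfkm* and *Pfkp*, had log2 fold changes of -0.15, -0.12 and -0.25 and adjusted p between 0.542 and 0.87. The 3 hexokinases, which trap glucose in the cell, gave -0.03 for *Hk1*, 0.21 for *Hk2* and -0.17 for *Hk3*, with adjusted p from 0.43 to 0.969.

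*Slc2a1*, the GLUT1 glucose carrier, was 42.1 ± 20.6 CPM in ARG1- and 64.1 ± 7.23 CPM in ARG1+ libraries (log2 0.67, adjusted p = 0.12). *Slc16a3*, the lactate exporter MCT4, was 28.7 ± 8.20 and 40.6 ± 5.99 CPM (log2 0.49, adjusted p = 0.0975), while the carrier MCT1 encoded by *Slc16a1* stood at a log2 value of 0.07 (adjusted p = 0.803). Among the PFKFB enzymes, whose product is a strong activator of phosphofructokinase, *Pfkfb2* was 5.49 ± 2.73 and 14.3 ± 6.40 CPM (log2 1.31, adjusted p = 0.0831) and *Pfkfb3* 45.0 ± 10.5 and 67.1 ± 15.3 CPM (log2 0.58, adjusted p = 0.0603). *Pfkfb4* lay the other way at a log2 value of -0.39 (adjusted p = 0.358). DESeq2 called *Slc2a1*, *Pfkl*, *Slc16a3*, *Pfkfb2* and *Pfkfb3* higher. Of 11 alternative settings, DESeq2 among them, *Pfkl* was called in 6, *Pfkfb3* in 5, *Slc2a1* and *Pfkfb2* in 2 and *Slc16a3* in 1. The kinases that switch off pyruvate dehydrogenase, *Pdk1*, *Pdk2* and *Pdk3*, and *Pdha1*, its catalytic subunit, lay between -0.21 and 0.09 with adjusted p from 0.368 to 0.949.

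*Hif1a* (chr12:73901375-73947530, plus strand) rose. It ran from 97.0 through 145 to 174 CPM in ARG1- libraries and from 164 through 224 to 246 CPM in ARG1+ libraries. The ranges overlapped by the highest ARG1- library, male 14, and the lowest ARG1+ library, female 15. The mean rose from 140 ± 25.6 to 212 ± 34.5 CPM (log2 fold change 0.60, SE 0.15, adjusted p = 0.0181). The call was lost once each library's trend on transcript length and GC content was removed (log2 0.45, adjusted p = 0.0631). Part of its exons overlap the antisense gene *Gm15283* by 330 bases and the same-strand gene *Gm49321* by 148 bases. *Gm49321* was itself called higher (log2 0.60, adjusted p = 0.0358 by edgeR). The strand setting of the counting is not given in the sources used here, so reads of the shared bases cannot be told apart. Others of the 34 genes share exon bases too. The largest same-strand overlaps were those of *Pfkfb2* with *Gm29427* (1262 bases), *Pgls* with *Fam129c* (776) and *Pkm* with *Gm49759* (767).

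In bulk samples a lower share of cells that hold a transcript and less of it per cell cannot be told apart. Near-identical copies elsewhere in the genome can take reads from a gene. The 77 annotated copies of *Gapdh*, at 95% identity or more over at least 300 bases, held counts equal to 6.81% of those of *Gapdh* in ARG1- and 6.58% in ARG1+ libraries. The figure was 1.48% for the 3 copies of *Eno1* and 0.71% for the 1 copy of *Ldhb*, and *Taldo1* and *Hif1a* had none. With the counts of its copies added to each gene, an alternative chosen after seeing the data, the same 5 genes were called.

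Levels of different genes can be compared only per length. In TPM, which divide counts by merged exon length before scaling each library to the same sum, *Ldhb* ranked highest of the 34 genes in both populations, at 1672 ± 150 TPM in ARG1- and 1067 ± 140 TPM in ARG1+ libraries. *Taldo1* ranked 2 in ARG1- libraries at 408 ± 24.7 TPM and 5 in ARG1+ libraries at 261 ± 22.9 TPM, where *Aldoa*, *Ldha* and *Pkm* at 438, 322 and 272 TPM stood above it. Per length of the longest coding transcript *Taldo1* ranked 3 in ARG1- libraries, at 485 ± 28.4 TPM below *Aldoa* at 530 ± 41.1 TPM, and 5 again in ARG1+ libraries. *Pkm* and *Taldo1* in ARG1+ cells differed by less than the SD of either. The merged exons of *Gapdh* span 4133 bases but its longest coding transcript 1420 bases, so its level of 161 ± 8.50 TPM in ARG1- libraries is understated, and per length of that transcript it was 349 ± 18.8 TPM. Summed over the 16 enzymes from hexokinase to pyruvate kinase, the level was 1557 ± 80.3 TPM in ARG1- and 1627 ± 116 TPM in ARG1+ libraries. The 5 pentose phosphate genes summed to 660 ± 23.4 and 564 ± 22.0 TPM without overlap (641 to 693 against 529 to 592), and the 4 lactate genes to 2031 ± 154 and 1445 ± 144 TPM (1793 to 2210 against 1257 to 1637), also without overlap. In each of these sums 1 gene, *Taldo1* or *Ldhb*, was lower in mean TPM in ARG1+ libraries: the other pentose phosphate genes had higher mean TPM in ARG1+ libraries (*G6pdx* 81.7 and 117, *Pgd* 51.9 and 61.1, *Pgls* 52.7 and 56.3, *Tkt* 66.3 and 68.7 TPM), as did the other lactate genes (*Ldha* 319 and 322, *Slc16a1* 25.3 and 31.0, *Slc16a3* 14.9 and 24.8 TPM). The glycolytic sums overlapped (1423 to 1653 against 1458 to 1792). By stage, the mean TPM sums went from 230 ± 38.8 to 254 ± 47.8 for the hexokinases and from 668 ± 52.8 to 740 ± 44.8 for upper glycolysis. For lower glycolysis they went from 659 ± 48.0 to 633 ± 43.7 TPM. In CPM the direction differed for the hexokinases and upper glycolysis, but not for lower glycolysis. From ARG1- to ARG1+ the median CPM sums went from 355 to 318 for the hexokinases, with overlapping ranges. They went from 862 to 801 for upper and from 1055 to 882 for lower glycolysis, again with overlap. *Tkt*, *Pgls* and *Ldha*, higher in mean TPM, had fitted log2 values below 0, at -0.18, -0.13 and -0.22. These sums were described and not tested, and TPM, unlike CPM, also moves with the length of all other transcripts in the library.

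Isoenzymes of the same step were set against each other as shares of their family's level per length, as a description without a test. *Ldhb* made up 83.9 ± 2.64% of the lactate dehydrogenase level in ARG1- libraries (80.6 to 87.7%) and 76.7 ± 3.0% in ARG1+ libraries (72.8 to 79.7%), and *Ldha* the remaining 16.1% and 23.3%. The populations did not overlap. With the longest coding transcript as the length the shares of *Ldhb* were 77.5% and 68.5%, likewise without overlap, so the size of the share depends on the length used and the lower share in ARG1+ cells does not. In the other 7 families the populations overlapped. *Aldoa* held 98.0% and 99.2% of aldolase, *Eno1* 99.8% and 99.3% of enolase, *Pfkl* 88.2% and 91.3% of phosphofructokinase, and *Hk3*, the hexokinase of myeloid cells, 79.5% and 75.8% of the hexokinase level. *Pfkfb4* held 73.6 ± 12.4% and 59.1 ± 5.30% of the PFKFB level, where the overlap rested on ARG1- male 14 at 49.4%, and the other ARG1- libraries held 76.0 to 85.4% against 49.3 to 64.5% in ARG1+ libraries. *Slc16a1* held 62.9 ± 7.17% and 55.4 ± 6.50% of the MCT level and *Pdk1* 44.3% and 46.0% of the PDK level.

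**Figure D3:**
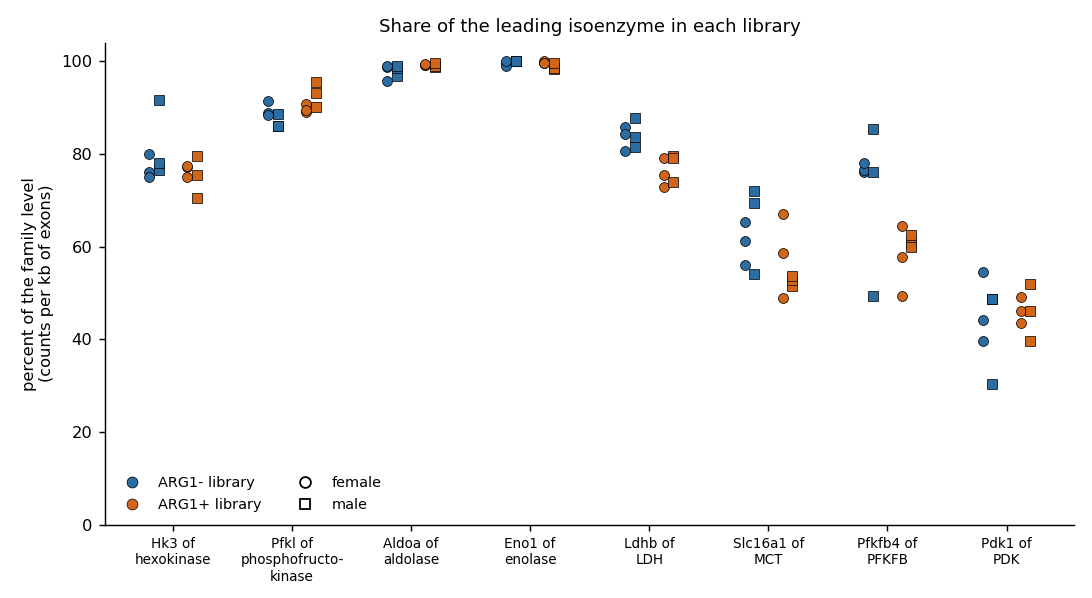
Percent of each isoenzyme family's level, in counts per kb of exons, held by its leading gene (y axis) in each of the 12 libraries for 8 families (x axis), with ARG1- in blue, ARG1+ in orange, circles for females and squares for males. With all 12 libraries the populations part only for *Ldhb*, at 80.6 to 87.7% against 72.8 to 79.7%, and for *Pfkfb4* they overlap through 1 ARG1- male.

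Next, the ARG1 difference was read within each sex. In females 5 of 34 genes were called, all lower (*Gapdh*, *Eno1*, *Pkm*, *Ldhb* and *Taldo1*), beside 6.76% of all genes in either direction. In males 2 were called, *Ldhb* and *Taldo1*, both lower, beside 5.13% of all genes. *Ldhb* had nearly equal values in the sexes (-0.87 in females, adjusted p = 0.0111, and -0.88 in males, adjusted p = 0.019), and *Taldo1* stood at -1.02 (adjusted p = 0.00363) and -0.71 (adjusted p = 0.019). *Gapdh* and *Eno1* had values of -0.57 and -0.59 in females and of -0.32 (adjusted p = 0.124) and -0.22 (adjusted p = 0.282) in males. *Hif1a* stood at 0.63 and 0.57 with adjusted p of 0.11 and 0.15. *Pkm* (-0.44, adjusted p = 0.0487) was called in none of the fits that left out 1 of the 12 libraries. The count in females fell to 1 without ARG1+ female 7, to 2 without ARG1+ female 8 or ARG1+ female 15 and to 3 without ARG1- female 2, and that in males to 0 without ARG1- male 6, ARG1- male 14, ARG1+ male 12 or ARG1+ male 16.

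**Figure D4:**
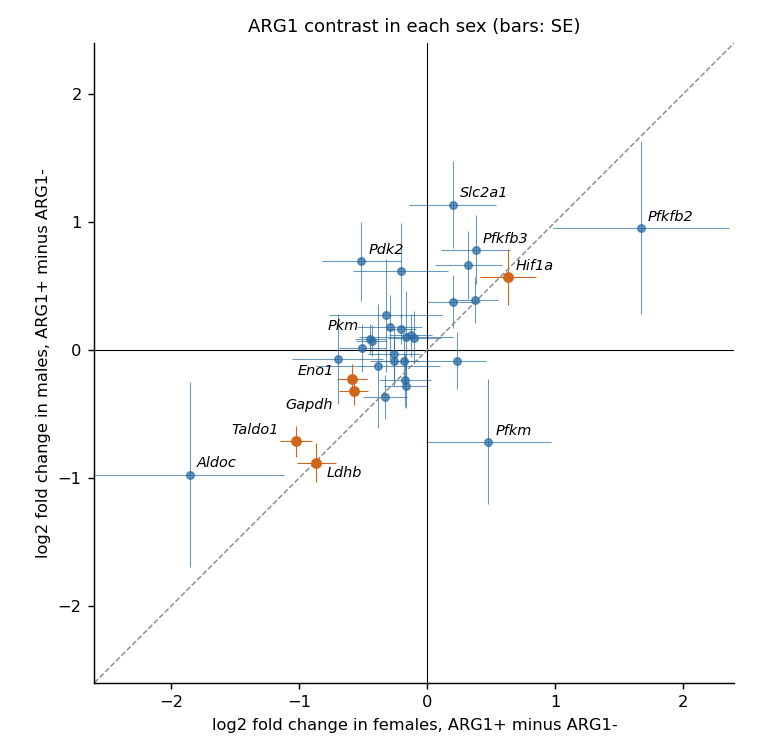
Log2 fold change (ARG1+ minus ARG1-) in females (x axis) and males (y axis) of 33 of the 34 genes, with bars for the SE, orange for the 5 genes called over both sexes, a dashed line where both are equal, and *Eno2* left out because its values of -1.39 and 7.63 lie off the scale. *Ldhb* lies on the line, and *Pkm* at -0.44 and 0.09 above it.

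Of the differences between the sexes in the ARG1 effect none was called by edgeR (0 of 34 genes, and 0.00% of all genes), with a smallest adjusted p of 0.47. At an unadjusted p under 0.05 there were 6 genes (9.32% of all genes), and DESeq2 called 1, *Eno2* (1.63% of all genes). The 6 by edgeR were *Pkm*, *Eno2*, *Tkt*, *Pdk2*, *Aldoa* and *Eno1*. Their unadjusted p, in this order, were 0.00879, 0.0088, 0.0122, 0.0174, 0.0464 and, rounded, 0.05. The smallest was that of *Pkm*. Its 3 ARG1- female libraries held 570, 471 and 516 CPM and its 3 ARG1+ female libraries 329, 431 and 385 CPM, without overlap, whereas the males held 433, 408 and 451 CPM and 487, 436 and 449 CPM. The difference of its log2 fold changes, females minus males, was -0.53 (SE 0.17, unadjusted p = 0.00879, adjusted p = 0.47). *Tkt* stood close to it at -0.51 (unadjusted p = 0.0122). In *Slc2a1*, which was not among the 6, the males parted. Its ARG1- males held 34, 38.6 and 18.1 CPM and its ARG1+ males 67.5, 63.9 and 67.8 CPM. The female libraries overlapped, at 27.9 to 70.1 and 55.4 to 74.0 CPM. The difference of its effects gave an unadjusted p of 0.0757 and an adjusted p of 0.581 by edgeR.

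Between the sexes within a population no gene was called by edgeR: 0 of 34 in ARG1- microglia (0.0946% of all genes) and 0 of 34 in ARG1+ microglia (0.0355%). The unadjusted counts were 5 (10% of all genes) and 2 (3.12%), and DESeq2 called 0 in both (2.26% and 0.131% of all genes). The fitted value was higher in females for 27 of 34 genes in ARG1- cells, with a median log2 difference of 0.18 (0.02 over all genes tested), and for 10 of 34 in ARG1+ cells, with a median of -0.12 (0.00 over all genes tested).

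The ARG1 difference of all genes went with transcript length, and the glycolytic genes had to be read beside it. Over protein-coding genes the median log2 fold change was -0.69 where the longest coding transcript had at most 1000 bases, -0.33 from there up to 2000 bases, -0.02 from there up to 4000 bases and 0.32 above 4000 bases. In the same order 42.8%, 24.3%, 8.13% and 1.97% of these genes were called lower, and 1.03%, 2.92%, 5.01% and 12.5% higher. All 9 glycolytic and pentose phosphate genes between 1000 and 2000 bases lay below 0, with a median of -0.25, and 6 of the 9 above 4000 bases lay above 0, with a median of 0.21. *Ldhb*, *Taldo1* and *Gapdh* have transcripts of 1304, 1362 and 1420 bases, *Eno1* one of 2027 and *Hif1a* one of 4724 bases. With each library's trend on length and GC content removed, *Taldo1* stood at -0.58 (adjusted p = 0.000572), *Ldhb* at -0.55 (0.00159), *Eno1* at -0.35 (0.00517) and *Gapdh* at -0.21 (0.0437). These 4 were then the only genes of the set called. The adjustment did not wholly remove the trend of short transcripts. The median of protein-coding genes stayed at -0.32 up to 1000 bases and at -0.09 from there up to 2000 bases, the range of *Taldo1*, *Ldhb* and *Gapdh*. Transcript length went with the populations over all genes, and its part in the differences of single genes was tested only by this adjustment.

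**Figure D5:**
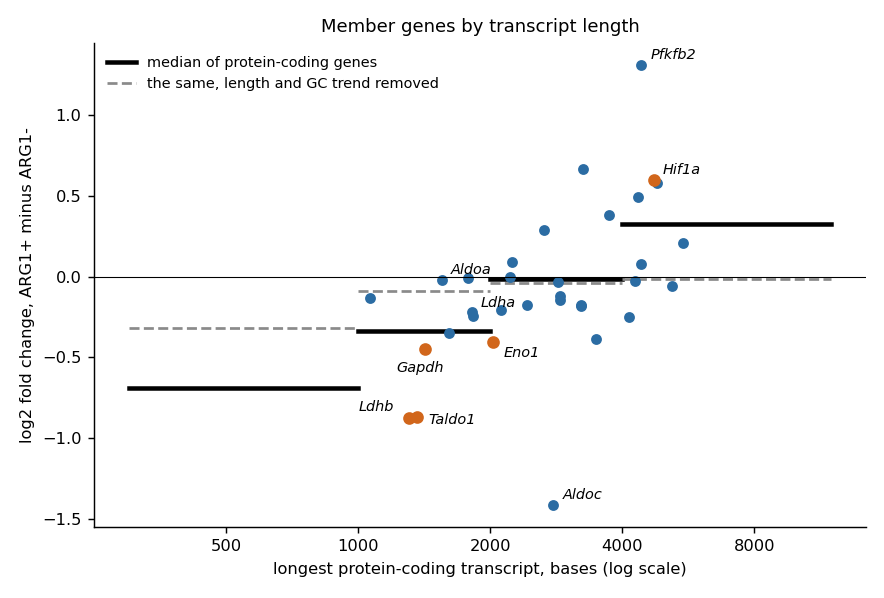
Log2 fold change (y axis, ARG1+ minus ARG1-) against the longest protein-coding transcript (x axis, bases, log scale) for 33 of the 34 genes, with *Eno2* left out, orange for called genes and black bars for the median of all protein-coding genes in 4 length ranges. The bars climb from -0.69 to 0.32, and dashed bars give the medians with the length and GC trend removed.

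To place these genes among their neighbours in metabolism, 115 further genes of glucose uptake, pyruvate handling, side branches, hypoxia signalling and NADPH use were listed, of which 97 were tested. Of these, 13 were lower and 4 higher in ARG1+ microglia, beside the 9.42% and 6.44% of all genes, and 48 lay below 0 with a median log2 fold change of 0.00. Those shares of all genes are not matched for transcript length, with which the calls varied as given above. Around pyruvate and lactate, 3 of 15 tested genes fell: *Mpc1* and *Mpc2*, the subunits of the mitochondrial pyruvate carrier, from 87.9 ± 7.48 to 46.1 ± 6.34 CPM (log2 -0.93, adjusted p = 0.000642) and from 34.5 ± 3.91 to 20.9 ± 5.11 CPM (-0.72, adjusted p = 0.0153), and *Bsg*, the chaperone that carries MCT1 and MCT4 to the membrane, from 515 ± 58.5 to 317 ± 43.2 CPM (-0.70, adjusted p = 0.00157). In none of the 3, named because they were called, did the populations overlap, and ARG1+ lay wholly below in 6.56% of all genes. Across the 11 alternative settings *Mpc1* ran from -0.93 to -0.50, *Mpc2* from -0.73 to -0.35 and *Bsg* from -0.70 to -0.51. The *Mpc2* call was lost when the length and GC trend was removed (adjusted p = 0.114) and without ARG1+ female 8, ARG1+ male 12 or ARG1+ male 16.

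Of 17 further uptake and isoenzyme genes 1 fell, *Slc2a5*, the fructose carrier GLUT5 that marks microglia, from 853 ± 198 to 529 ± 60.5 CPM (log2 -0.68, adjusted p = 0.00778). Among users of NADPH and of thiol reduction, 4 of 13 fell and 1 rose. The oxidase subunits *Cyba* and *Ncf1* fell by 0.96 and 0.37 on the log2 scale (adjusted p = 0.00139 and 0.00397), the glutathione peroxidase *Gpx1* by 0.92 (0.0017) and the thioredoxin *Txn1* by 0.98 (0.0113), while *Txnrd1*, which reduces thioredoxin with NADPH, rose by 0.53 (0.0356). Across the 11 alternative settings *Cyba* ran from -0.96 to -0.66, *Ncf1* from -0.42 to -0.33, *Gpx1* from -0.93 to -0.62 and *Txn1* from -0.99 to -0.58. Of 18 side-branch genes *Akr1b3*, the aldose reductase, and *Mpi*, which feeds mannose into glycolysis, fell by 0.79 (adjusted p = 0.00174) and 0.46 (0.0139). Of 8 further pentose phosphate genes *Dera*, which breaks down deoxyribose phosphate, fell by 0.47 (0.0316). The calls of *Mpi*, *Dera* and *Txnrd1* were lost with the length and GC trend removed (adjusted p = 0.108, 0.231 and 0.0943), and of the 12 fits that left out a library 10, 3 and 4 kept them. *Dera* was also not called with DESeq2 size factors, with no filter or with a 10-count minimum per library.

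Of 12 regulators of hypoxia and glucose-responsive transcription 3 rose and 1 fell. *Mlxip* and *Mlxipl*, which encode the glucose-sensing factors MondoA and ChREBP, rose by 0.90 (adjusted p = 0.0121) and 0.97 (0.00544) on the log2 scale, and *Txnip*, a textbook target of both that restrains glucose uptake, fell from 539 ± 49.7 to 412 ± 38.5 CPM (-0.38, adjusted p = 0.0123). *Mlxip* was not called with the length and GC trend removed (adjusted p = 0.297). *Egln3*, an oxygen-sensing hydroxylase, was called higher from 0 to 0.10 CPM in ARG1- and 0 to 2.37 CPM in ARG1+ libraries, at or near the floor, and only 2 of the 12 fits that left out a library called it. Of 14 known targets of hypoxia-inducible factor outside glycolysis 1 was called, *Bnip3l*, a mitophagy receptor that fell (-0.63, adjusted p = 0.0116).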

How the data were processed

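RNA from sorted microglia was turned into full-length cDNA with SMART-Seq v4 and into Nextera XT libraries, which were read as single ends. The authors deposited raw counts per gene; the submitters' processing notes name STAR 2.6.1d, featureCounts 1.5.1, bcl2fastq 2.20.0, DESeq2 1.28.1 and the build GRCm38 (mm10). The annotation release and strand setting are not given in the sources used here. Of the identifiers, 260 matched no annotated gene and held 0.0333% of counts.

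All 12 libraries entered 1 fit over all genes kept by filterByExpr (16908), with TMM factors and terms for ARG1 status and sex. Calls came from edgeR 4.0.16 (R 4.3.3, quasi-likelihood F), with p adjusted after Benjamini-Hochberg over the whole table and a limit of 0.05. SE is the log2 fold change divided by the root of its F. Contrasts within a sex, between sexes and of the interaction came from a fit of the 4 group means. DESeq2 1.42.0 (Wald test) was an alternative. In the trend adjustment, each library's trend on transcript length and GC content was fitted with mgcv 1.9.3 and entered as offsets. Copies were found with blastn 2.17.0. The code was tested on simulated counts.

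Named were all 34 genes, in full where called, and every called gene of the adjoining list. The genes and lists were chosen with earlier results of these data known. The paper describes the replicates as independent samples of pooled brains. Same-group pairs differed by more than counting noise in 12 of 12 pairs (chi-square per degree of freedom 40.7 to 125). Library preparation can also add such spread, so this does not show that the pools were separate.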

Additional observations from a re-analysis of the deposited data

Results flagged for a closer look

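For each of the 34 genes, the 8 leading isoenzyme shares and the library total, Dixon's criterion was applied to the 6 libraries of each population to find a value that stood away from the other 5. Of 86 groups 8 were flagged, where chance flags about 1 in 20, or 4.3.

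ARG1- male 14 gave 4 of the 8. Its *Pfkl* level was 165.579 CPM against 101.854 to 125.469 CPM in the other ARG1- libraries, its *Pgls* level 56.3484 CPM against 73.6007 to 76.8921 CPM, its *Hk3* share of hexokinase 91.5279% against 75.0108 to 80.0306%, and its *Pfkfb4* share of PFKFB 49.3935% against 76.0157 to 85.3653%. Without this library *Pfkl* and *Pfkfb2* were called higher and *Pfkfb4* lower, beside the 5 genes called with it.

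ARG1- female 13 had a *G6pdx* level of 131.832 CPM, against 73.6795 to 92.6257 CPM in the other ARG1- libraries, and without it *G6pdx* was called higher in ARG1+ cells. ARG1- female 2 had 2.64625 CPM of *Eno2*, against 0 to 0.960531 CPM, and with it an *Eno1* share of 99.004% against 99.7083 to 100%. ARG1+ male 12 had 141.51 CPM of *Hk2*, against 68.1589 to 90.9526 CPM in the other ARG1+ libraries.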

How the results depend on the processing

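Across 11 alternative settings and 12 fits that each left out a library, *Taldo1*, *Ldhb* and *Gapdh* kept their direction and their call. *Eno1* kept both but for the call without ARG1+ female 7 or ARG1+ female 8, and *Hif1a* but for the call with the length and GC trend removed. Of the single-gene values of the 34 genes under other settings, 323 kept their direction and side of the limit, 19 (of 6 genes) gained a call and 1 lost it. The 1 higher gene became 3 with DESeq2 size factors, 2 with upper-quartile factors, 5 with a 10-count minimum per library, 6 with DESeq2's Wald test, 3 with ARG1 status alone, 2 with a term for libraries numbered 13 to 16, 2 with counts thinned to the smallest total, 0 with the length and GC trend removed, and 1 to 3 when a library was left out, with 3 without ARG1- male 14 and 2 without ARG1- female 1, 2 or 13, ARG1- male 6, ARG1+ female 15 or ARG1+ male 11. The 4 lower genes became 5, with *Aldoc*, under the 10-count minimum, DESeq2's Wald test and the term for libraries 13 to 16, and 3 to 5 when a library was left out. In females the 0 higher genes became 1 with the filter of 10 counts and 1 with DESeq2, and 0 to 1 when a library was left out, and the 5 lower genes became 2 with no filter and 1 to 4 when a library was left out. In males the 0 higher became 1 with the filter of 10 counts and 3 with DESeq2, and 0 to 1 when a library was left out, and the 2 lower became 0 to 2. Of the interactions DESeq2 called 1. In the adjoining list the 4 higher genes became 9 with DESeq2 and 2 to 5 when a library was left out, with 2 without ARG1- female 13, ARG1+ female 7 or 8 or ARG1+ male 16. Over all genes, 1089 higher and 1593 lower genes became 2141 and 1964 with DESeq2. The cause of these shifts was not tested. Differences near 0 changed sign. With DESeq2 size factors, no filter, the filter of 10 counts and DESeq2, in this order, *Hk1* stood at 0.0111, 0.00602, 0.0119 and 0.0179, *Aldoa* stood at 0.0178, 0.0134, 0.0182 and 0.0249, *Pgam1* stood at 0.0302, 0.0242, 0.0298 and 0.0364, *Pdha1* stood at 0.00446, 0.00137, 0.00699 and 0.0111, and *Pgd* stood at 0.0339, 0.0286, 0.0346 and 0.0407. With upper-quartile factors the values were 0.00819 for *Pgam1* and 0.0120 for *Pgd*. With the term for libraries 13 to 16 the values were 0.0575 for *Hk1* and 0.00953 for *Pgd*. With the length and GC trend removed the values were -0.144 for *Hk2*, 0.173 for *Aldoa*, 0.179 for *Pgam1*, -0.0873 for *Slc16a1*, 0.0664 for *Pgd* and 0.0531 for *Pgls*. When a library was left out, *Hk1* ran from -0.220 to 0.105, *Pfkm* ran from -0.276 to 0.110, *Aldoa* ran from -0.0615 to 0.0474, *Pgam1* ran from -0.0309 to 0.0405, *Slc16a1* ran from -0.0127 to 0.191, *Pdk1* ran from -0.180 to 0.0654, *Pdk2* ran from -0.0801 to 0.221, *Pdha1* ran from -0.179 to 0.196 and *Pgd* ran from -0.0750 to 0.0979. No paired analysis was possible because the groups share no replicate numbers in the labels. The 2 alternatives with near-identical copies and with TMM factors taken without ribosomal protein and mitochondrial genome genes were chosen after seeing the data, and gave the same 5 calls.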
